A study of Mus musculus with 12 samples.

Results

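The elastic fibre genes examined here are the elastin, fibrillin, fibulin and microfibril genes Eln, Fbn1, Fbn2, Fbln1, Fbln2, Fbln5, Efemp1, Mfap2, Mfap4 and Mfap5, taken by symbol from probe sets that the array annotation pairs with 1 gene. Of the 10 genes, 9 were measured by such probe sets, 17 of the 45037 tested, and they stand among 18193 genes in all. Fbn1 was not analysed here. Efemp1 and Mfap4 have 1 probe set each, Fbln1 has 3, and the other 6 genes have 2 each, of which the mean was taken.

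Elastic fibres give skin its recoil. They consist of a core of cross-linked elastin laid down on a sheath of microfibrils, which are built from fibrillins and carry small microfibril-associated glycoproteins. Fibulins bind elastin, fibrillins and the cross-linking enzymes, and some of them are needed for the assembly of the fibre. In mouse dermis the network is made mainly by fibroblasts and is still being laid down after birth.

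Affymetrix MG430.2A arrays of dermis from C57Bl6/CBA F1 mice fall into 4 groups of 3: tail skin and back skin 5 days after birth (labelled P5 tail and P5 back) and tail skin and back skin 1 day after birth (labelled P1 tail and P1 back). No group carries a transgene or a treatment, and RNA came from triplicate mice. For the P1 mice, tail dermis was parted from the epidermis in EDTA and back dermis in dispase with trypsin, so site and solution cannot be told apart, and both were then digested to single cells before lysis. The values are log2 signals centred per probe set on the median of the 12 arrays. A value of 0 is therefore that gene's own median, only differences between arrays can be read, and levels of different genes cannot be compared.

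The site labels were checked with posterior Hox genes, which are active towards the tail end of the body. At a limma adjusted p under 0.05, 7 of 10 measured posterior Hox genes were lower in labelled tail than in labelled back at P5. At P1 it was also 7 of 10, and the median log2 differences were -1.35 at P5 and -1.43 at P1. The rest did not pass but were negative too. They were Hoxc10 (-0.32), Hoxd12 (-0.12) and Hoxd13 (-0.36) at P5, and Hoxc13 (-0.31), Hoxd12 (-0.17) and Hoxd13 (-0.42) at P1. Their mean per array ran from -0.814 to -0.673 in labelled P5 tail against 0.71 to 0.794 in labelled P5 back, and from -0.827 to -0.807 in labelled P1 tail against 0.703 to 0.834 in labelled P1 back. Adipocyte genes were higher in labelled P1 tail than in labelled P1 back for 6 of 6 measured. The study gives fat genes the opposite direction between tail and back. The site labels of the arrays may therefore be exchanged, which was not tested. Groups are called by their labels throughout, and every site difference is labelled tail minus labelled back. With the labels exchanged, every site difference and every interaction would change sign, and each age difference given for labelled tail would belong to back and the reverse. The array P5 tail 2 also stands apart, with a coordinate of 89.7 on the first principal component of all probe sets, against -31.1 to 33.7 for the other 11 arrays. By the same test, of 8 fibroblast genes Lum was higher and Col1a2 lower in labelled P5 tail, and Col3a1 was higher in labelled P1 tail.

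Of the 9 measured elastic fibre genes, 3 passed the test in some comparison: Efemp1 was higher in the arrays labelled tail at both ages, Mfap5 was lowest in labelled P5 tail, and Fbln1 was lower in labelled P5 back than in labelled P1 back. Eln itself, Fbn2, Fbln2, Fbln5, Mfap2 and Mfap4 passed in none. Calls were made with limma over all 18193 genes at an adjusted p under 0.05. Between labelled P5 tail and labelled P5 back 2 of 9 were called, where 6.91% of all genes were. Between labelled P1 tail and labelled P1 back 1 of 9 was called, against 3.97% of all genes. Between the ages, 1 of 9 was called in tail and 1 of 9 in back, against 5.3% and 4.25% of all genes. With 9 genes, counts of 1 or 2 do not set the family apart from other genes.

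**Figure D1:**
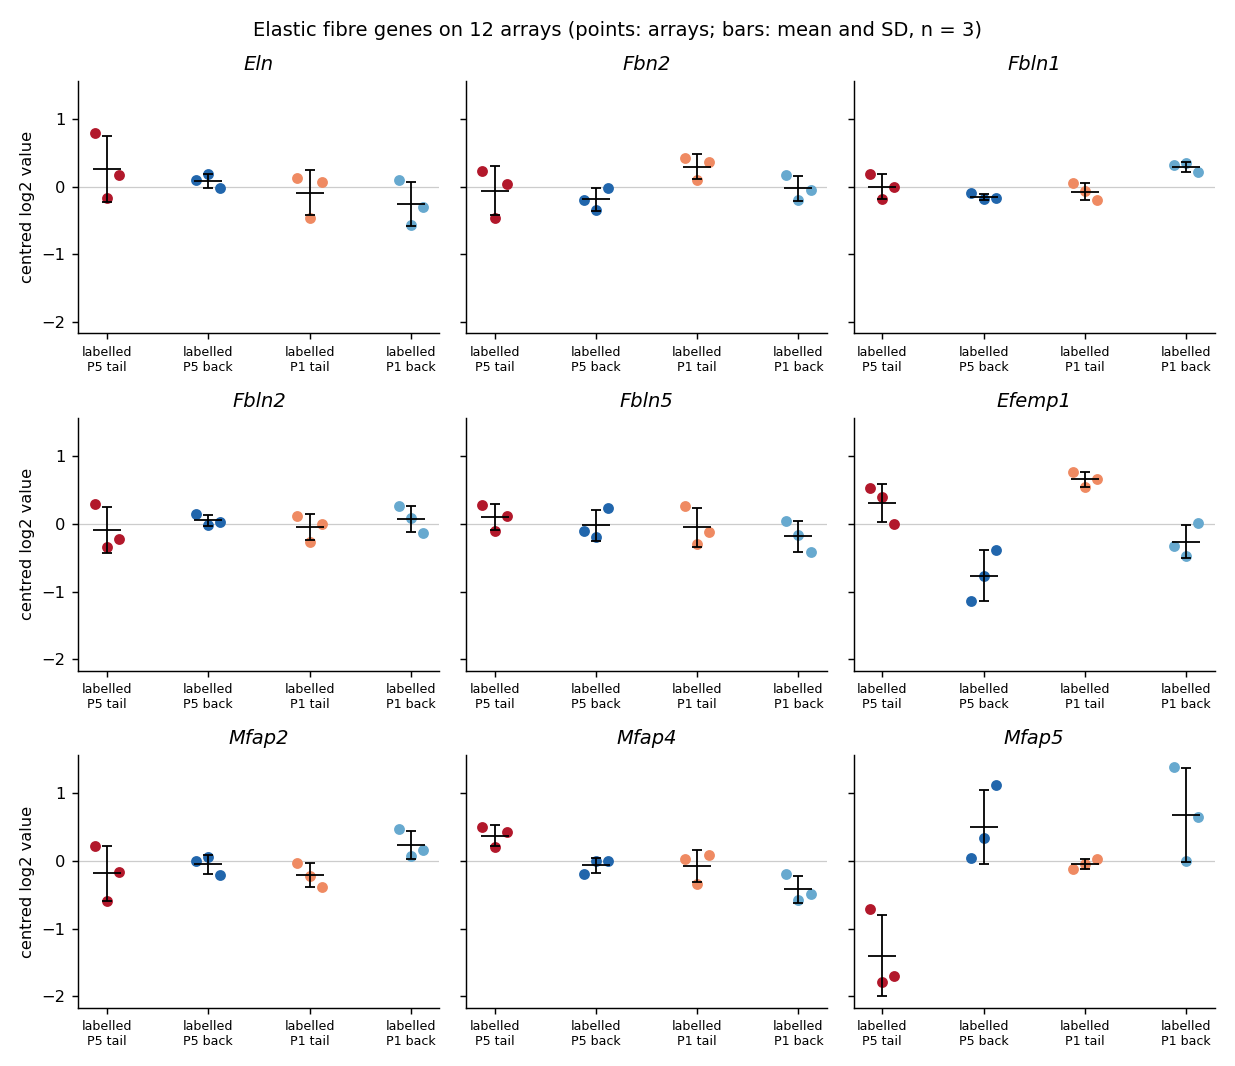
Centred log2 value (vertical axis) of each of the 9 measured elastic fibre genes on the 12 arrays, by labelled group (horizontal axis). Points are arrays and bars give mean and SD of 3 arrays. Efemp1 is higher under the tail labels at both ages, and Mfap5 lies at -0.71 or below in labelled P5 tail and at -0.12 or above elsewhere.

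The median log2 difference of the 9 genes was 0.125 at P5 and 0.131 at P1 between the sites, beside medians over all genes of -0.0191 and -0.042. Between the ages it was 0.0259 in labelled tail and -0.166 in labelled back, beside 0.0388 and 0.00667 over all genes. The genes differed in how much they varied: over the 12 arrays Mfap5 had an SD of 0.966, Efemp1 of 0.612 and Eln of 0.355, whereas Fbln1 and Fbln2 had 0.202 each, close to the median gene at 0.196. In bulk RNA, fewer cells of a type and less RNA per cell cannot be told apart.

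**Figure D2:**
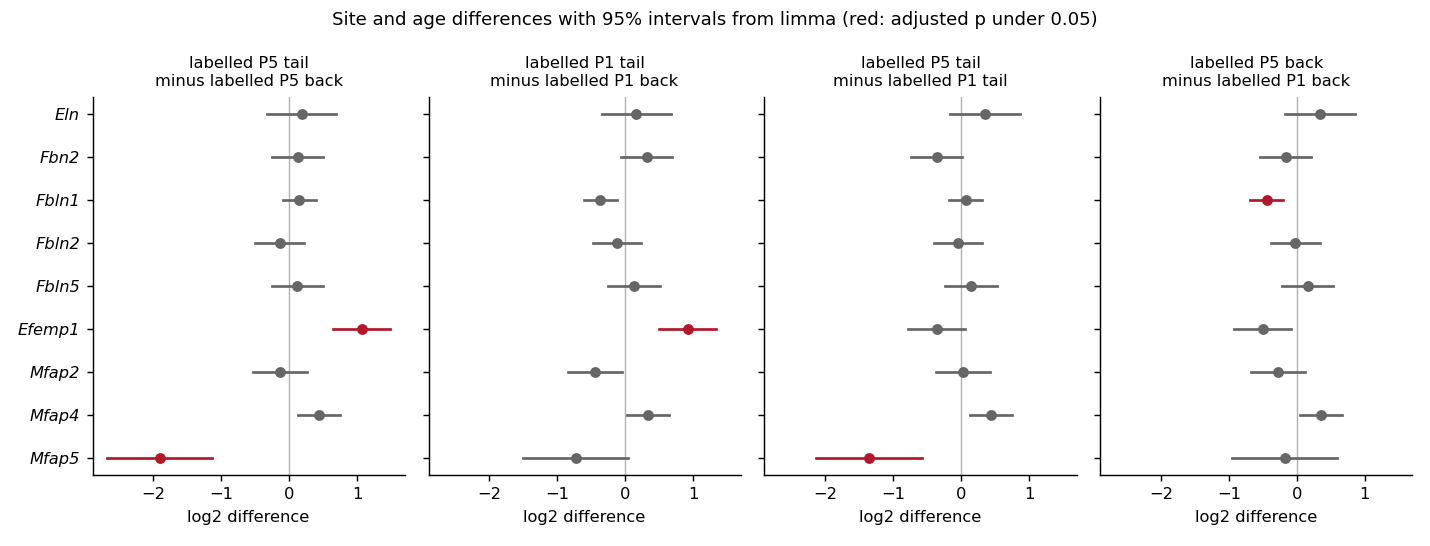
Log2 difference (horizontal axis) of each elastic fibre gene (rows) in 4 comparisons, with 95% intervals from limma. Red marks an adjusted p under 0.05: Efemp1 and Mfap5 between the P5 sites, Efemp1 between the P1 sites, Mfap5 between the ages in labelled tail and Fbln1 between the ages in labelled back.

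Eln encodes tropoelastin, the soluble monomer that is cross-linked into the elastic core. Its log2 values were 0.80, -0.16 and 0.17 in labelled P5 tail, 0.09, 0.18 and -0.03 in labelled P5 back, 0.13, -0.47 and 0.07 in labelled P1 tail, and 0.09, -0.56 and -0.30 in labelled P1 back. The groups overlapped in every comparison, and the highest value belongs to P5 tail 2, the array that stands apart. Labelled tail minus labelled back was 0.18 at P5 (SE 0.236, 95% interval -0.327 to 0.694, limma adjusted p = 0.716) and 0.17 at P1 (SE 0.236, interval -0.344 to 0.678, adjusted p = 0.814). P5 minus P1 was 0.36 in labelled tail (interval -0.154 to 0.868, adjusted p = 0.422) and 0.34 in labelled back (interval -0.17 to 0.851, adjusted p = 0.678). Both probe sets of Eln gave positive age differences in both sites, between 0.32 and 0.37.

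Fbn2 encodes fibrillin-2, the fibrillin best known from developing tissue. Labelled P1 tail held its highest group mean, 0.30 ± 0.18, against -0.02 ± 0.19 in labelled P1 back, while labelled P5 tail averaged -0.06 ± 0.36 and labelled P5 back -0.19 ± 0.16 (SD, n = 3 each). The groups overlapped in each comparison. P5 minus P1 was -0.36 in labelled tail (interval -0.735 to 0.0167, limma adjusted p = 0.265) and -0.17 in labelled back (interval -0.542 to 0.21, adjusted p = 0.844). The site differences were 0.12 at P5 and 0.32 at P1, with adjusted p of 0.741 and 0.449. Its 2 probe sets ran together over the arrays, with a Pearson r of 0.953.

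Efemp1 encodes fibulin-3, a short fibulin found in the extracellular matrix of many connective tissues. Its values were 0.53, 0.39 and -0.0096 in labelled P5 tail against -1.14, -0.77 and -0.39 in labelled P5 back. In labelled P1 tail they were 0.77, 0.54 and 0.66, against -0.33, -0.47 and 0.0096 in labelled P1 back. At each age all 3 arrays labelled tail lay above all 3 labelled back. The site difference was 1.07 at P5, a 2.1-fold change (SE 0.193, interval 0.649 to 1.49, limma adjusted p = 0.00485), and 0.92 at P1, a 1.89-fold change (SE 0.193, interval 0.501 to 1.34, adjusted p = 0.017).

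The age differences of Efemp1 did not pass the test: P5 minus P1 was -0.35 in labelled tail (adjusted p = 0.326 by limma), where the groups did not overlap, and -0.50 in labelled back (adjusted p = 0.24). The site differences at the 2 ages were not shown to differ, with an interaction of 0.15 (interval -0.444 to 0.741, adjusted p = 0.872). At P5 the call held with each array left out in turn, with adjusted p from 0.0031 to 0.023. At P1 it was lost without P1 tail 4 (adjusted p = 0.068), P1 tail 6 (0.066), P1 back 1 (0.066) or P1 back 5 (0.083), the difference staying between 0.82 and 1.06. Tendon genes moved with the site at both ages, and were lower in labelled tail for 3 of 5 at P5 (list mean -0.735 to -0.246, against 0.374 to 1.46 in labelled P5 back) and for 2 of 5 at P1 (-0.606 to -0.574, against 0.125 to 1.81 in labelled P1 back). Over the 12 arrays the Pearson r of Efemp1 was -0.763 with the tendon gene Mkx, -0.711 with Fmod and -0.533 with Tnmd, as a description. No r is given for the tendon genes Scx and Thbs4. With the adipocyte gene Adipoq it was 0.616 and with the fibroblast gene Col1a1 -0.581. With Col2a1, Col11a1, Krt1 and Pdgfra it lay between -0.377 and 0.138. These markers were named after their values were seen. Keratinocyte genes were higher in labelled P5 tail for 2 of 7 (list mean 0.0376 to 0.36, against -0.744 to -0.305 in labelled P5 back) and lower in labelled P1 tail for 1 of 7 (-0.861 to 0.182, against 0.183 to 0.457 in labelled P1 back). Adipocyte genes passed for 0 of 6 at P5 (-0.147 to 0.276 in labelled P5 tail, -0.462 to 0.0438 in labelled P5 back) and for 6 of 6 at P1 (1.19 to 1.83 in labelled P1 tail, -1.51 to -1.45 in labelled P1 back). The part of these cells in the Efemp1 difference was not tested.

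Promoter sequence from RefSeq (GRCm38.p6) was at hand for 6 of the 10 genes, and is shown for the called members among them, Efemp1 and Fbln1, up to the base before the annotated gene start on the plus strand. The Efemp1 stretch is chr11:28852955-28853153 and the Fbln1 stretch is chr15:85205699-85205948. Capitals mark the only match found on either strand to any of 5 motifs searched. These were TATAAA of the core promoter, GGGCGG of Sp-family factors and TGANTCA of AP-1 type, with any base allowed at its centre. The others were CTTTGA of TCF/LEF type and GGAATG of TEAD type.
Efemp1: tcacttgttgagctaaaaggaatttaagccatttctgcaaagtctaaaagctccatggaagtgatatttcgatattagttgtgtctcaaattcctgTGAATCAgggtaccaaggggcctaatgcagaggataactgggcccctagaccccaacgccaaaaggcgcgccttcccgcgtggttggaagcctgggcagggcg
Fbln1: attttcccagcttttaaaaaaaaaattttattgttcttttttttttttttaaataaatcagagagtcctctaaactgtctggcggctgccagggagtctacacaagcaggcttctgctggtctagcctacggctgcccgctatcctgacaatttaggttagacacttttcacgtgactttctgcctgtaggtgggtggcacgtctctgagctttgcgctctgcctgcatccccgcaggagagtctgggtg
The match in Efemp1 starts at position -154 from the transcript start of its promoter window, which lies 51 bases beyond the annotated gene start, and 5.55% of 32851 promoter windows of the same length hold this motif. The Fbln1 stretch held none of the 5, which 12.4%, 32.7%, 6.75%, 13.8% and 12.6% of the windows hold in the order given. The Efemp1 match has A at the open centre base, so it is not taken as an AP-1 site. A match is a description of the letters and not of binding.

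Fbln1 encodes fibulin-1, which binds elastin and fibronectin and also lies in basement membranes. Its values were -0.09, -0.19 and -0.17 in labelled P5 back against 0.32, 0.34 and 0.21 in labelled P1 back, with no overlap. The difference was -0.44, or 1.36-fold lower (SE 0.112, interval -0.685 to -0.2, limma adjusted p = 0.0436). In labelled tail the ages overlapped, with 0.18, -0.18 and -0.0078 at P5 against 0.05, -0.07 and -0.20 at P1, and a difference of 0.07 (adjusted p = 0.771). Between the P1 sites labelled tail lay wholly below labelled back (difference -0.36, interval -0.606 to -0.121), without passing the test (adjusted p = 0.109). Between the P5 sites the difference was 0.15 (adjusted p = 0.492). The interaction of site and age was 0.51 (SE 0.158, interval 0.171 to 0.856) and missed the threshold (adjusted p = 0.121), except without P5 tail 3, where it was 0.60 (adjusted p = 0.048).

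The age difference of Fbln1 in labelled back rested on all of its arrays and on which probe sets were read. It missed the threshold without any 1 of P5 back 1 (adjusted p = 0.091), P5 back 2 (0.17), P5 back 3 (0.13), P1 back 1 (0.15), P1 back 5 (0.17) or P1 back 6 (0.098), always with limma. It was -0.76 for probe set 1451119_a_at (adjusted p = 0.0407, a call made for 2.3% of all probe sets), -0.56 for 1422540_at (adjusted p = 0.157) and -0.01 for 1439688_at (adjusted p = 0.999). Between the P5 sites 1439688_at ran against the other pair, at -0.46 beside 0.40 and 0.51. The pairwise r of the 3 probe sets over the arrays went from -0.409 to 0.881. Between the same groups of labelled back, 4 of 7 keratinocyte genes were lower at P5 (list mean -0.744 to -0.305, against 0.183 to 0.457 at P1) and 5 of 6 adipocyte genes were higher (-0.462 to 0.0438, against -1.51 to -1.45), and their part in the Fbln1 difference was not tested.

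**Figure D3:**
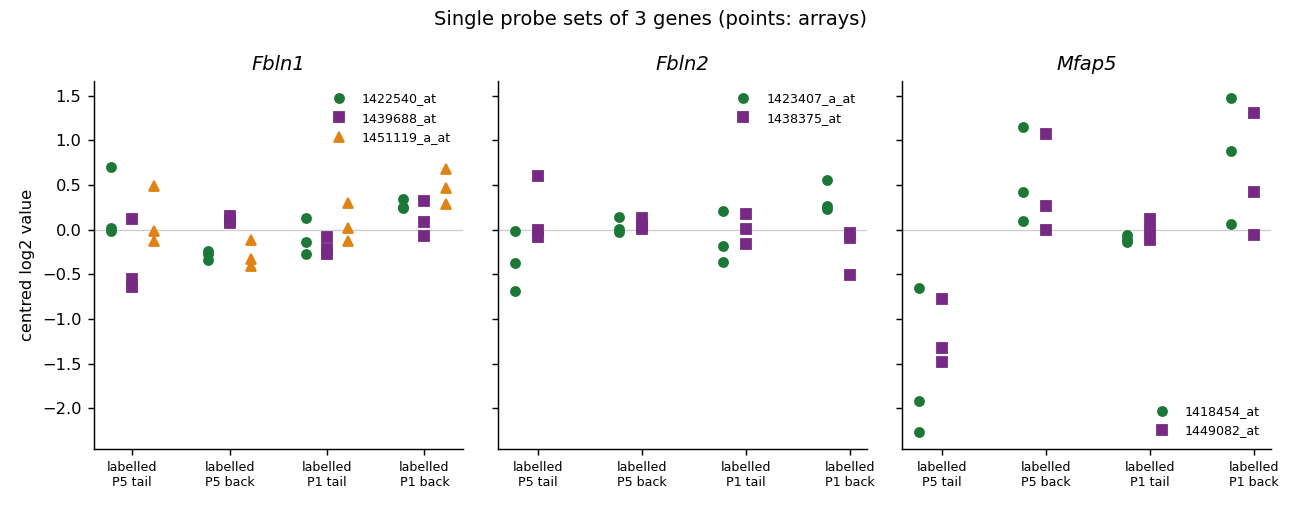
Centred log2 value (vertical axis) of the single probe sets of Fbln1, Fbln2 and Mfap5 on the 12 arrays, by labelled group (horizontal axis). The pair of Mfap5 probe sets runs together (r = 0.972), the pair of Fbln2 does not (r = -0.0933), and 1439688_at of Fbln1 departs from the other probe sets in labelled P5 tail.

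Fbln2 and Fbln5 passed the test in no comparison. Fbln5 encodes fibulin-5, which mice need for normal elastic fibre assembly. Its site differences were 0.12 at P5 and 0.13 at P1, and its age differences 0.15 in labelled tail and 0.16 in labelled back, with 95% intervals that all lay within -0.26 to 0.54 and adjusted p of 0.681 or more by limma. Its probe sets had an r of 0.497 and differed in sign between the sites. Of these, 1416164_at gave 0.30 at P5 and 0.28 at P1, and 1446377_at gave -0.07 and -0.01. Fbln2, which encodes the fibrillin and elastin binder fibulin-2, gave site differences of -0.14 at P5 and -0.12 at P1 and age differences of -0.04 in labelled tail and -0.02 in labelled back, with adjusted p of 0.685 or more. These means join probe sets that disagree. Between the sites 1423407_a_at gave -0.40 at P5 and -0.46 at P1, whereas 1438375_at gave 0.11 and 0.22, so no direction can be given for Fbln2.

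Mfap2 encodes MAGP-1, a small glycoprotein that binds fibrillin microfibrils. Labelled P1 tail had -0.02, -0.22 and -0.38 against 0.47, 0.07 and 0.16 in labelled P1 back, without overlap, and the difference of -0.44 (interval -0.841 to -0.0423) had an adjusted p of 0.284 with limma. The P5 sites overlapped, with 0.22, -0.60 and -0.17 in labelled P5 tail against values from -0.21 to 0.06 in labelled P5 back (difference -0.13, adjusted p = 0.736). In labelled back the P5 arrays lay below the P1 arrays (difference -0.28, adjusted p = 0.645), and in labelled tail the difference was 0.03 (adjusted p = 0.958).

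Mfap4 encodes a fibrinogen-related glycoprotein that binds tropoelastin and fibrillin. Its values were 0.50, 0.20 and 0.42 in labelled P5 tail, against -0.20, -0.0032 and 0.0032 in labelled P5 back and 0.03, -0.34 and 0.08 in labelled P1 tail. Labelled P1 back held the lowest, -0.19, -0.58 and -0.48. Labelled P5 tail lay wholly above both of its comparison groups, yet the differences of 0.44 to labelled P5 back (interval 0.132 to 0.748) and 0.45 to labelled P1 tail (interval 0.14 to 0.756) did not pass, with limma adjusted p of 0.0911 and 0.0932. The remaining differences were 0.34 between the P1 sites (adjusted p = 0.28) and 0.35 between the ages in labelled back (adjusted p = 0.275). Groups that did not overlap were common: 3 of 9 elastic fibre genes between the P5 sites and 3 of 9 between the P1 sites, where 20.6% and 30.2% of all genes were so separated, and 3 of 9 and 2 of 9 between the ages in labelled tail and labelled back, where 19.4% and 28% were.

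Mfap5 encodes MAGP-2, which binds fibrillin microfibrils. It varied most of the 9 genes. Labelled P5 tail had -0.71, -1.79 and -1.70, below every other array, against 0.05, 0.34 and 1.11 in labelled P5 back. Labelled P1 tail had -0.12, -0.05 and 0.03, against 1.39, 0.0025 and 0.65 in labelled P1 back. The P5 site difference was -1.90, or 3.74-fold lower in labelled P5 tail (SE 0.357, interval -2.68 to -1.13, limma adjusted p = 0.00619), and both probe sets were called, at -2.17 and -1.64, where 4.76% of all probe sets were. The P1 site difference was -0.73 (interval -1.5 to 0.0452, adjusted p = 0.382), and the groups overlapped.

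Between the ages Mfap5 was 2.55-fold lower in labelled P5 tail than in labelled P1 tail, a difference of -1.35 (SE 0.357, interval -2.13 to -0.579, limma adjusted p = 0.0466), whereas labelled back gave -0.18 (interval -0.952 to 0.594, adjusted p = 0.944). The interaction of site and age was -1.17 (SE 0.505, interval -2.27 to -0.0803) and did not pass (adjusted p = 0.306), so the age differences were not shown to differ between the sites. The P5 site call held with each array left out, with adjusted p from 0.0032 to 0.032. The age call in labelled tail was lost without P5 tail 3 (adjusted p = 0.09), P5 tail 4 (0.098), P1 tail 4 (0.12), P1 tail 5 (0.089) or P1 tail 6 (0.14), and neither probe set passed alone (0.0643 and 0.0662, where 3.12% of all probe sets passed).

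Within the arrays labelled back, Mfap5 was highest in P1 back 1, P5 back 3 and P1 back 6, the arrays that also held the highest values of the cartilage collagen gene Col2a1 (5.38, 3.77 and 5.23, against 0.38 or less in the other 9). The mean of 6 skeletal muscle genes split the arrays labelled back in the same way. It was 0.557, 0.99 and 0.887 on these arrays, against -1.56 on P1 back 5, -1.54 on P5 back 1 and -1.48 on P5 back 2. The part of muscle in the Mfap5 values was not tested. Of the 5 tendon genes, 3 were called lower in labelled tail at P5: Tnmd by a log2 difference of -1.95, Mkx of -1.56 and Fmod of -2.50. The other tendon genes did not pass there, with Thbs4 at -0.78 (limma adjusted p = 0.549) and Scx at -0.0030 (adjusted p = 0.992). Over the 12 arrays the Pearson r of Mfap5 was 0.921 with Tnmd, 0.801 with Fmod and 0.563 with Mkx. With the cartilage genes Col2a1 and Col11a1 it was 0.724 and 0.932. These genes were named after their values were seen, and Col11a1 is among the 5 genes nearest to Mfap5 of all. The r are given as a description over arrays that share groups.

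The list means of the 5 tendon genes, given beside Efemp1, did not overlap between the sites at either age. Of 10 cartilage genes 0 passed at P5 and 4 were lower in labelled tail at P1, their mean running from -0.58 to -0.124 in labelled P5 tail, 0.0307 to 1.06 in labelled P5 back, -0.23 to -0.197 in labelled P1 tail and 0.0182 to 2.55 in labelled P1 back. Between the ages in labelled tail, where Mfap5 was called, 0 of 5 tendon genes passed. Without passing, Tnmd (-0.63) and Thbs4 (-0.59) lay wholly lower at P5, whereas Mkx lay wholly higher (1.25), against the direction of Mfap5. Between these groups 5 of 6 adipocyte genes were lower at P5 (list mean -0.147 to 0.276 in labelled P5 tail, against 1.19 to 1.83 in labelled P1 tail). In the same comparison 2 of 5 macrophage genes were lower at P5, Mrc1 by a log2 difference of -1.36 and Csf1r of -0.68 (list mean -0.637 to -0.125, against 0.107 to 0.317), and 2 of 7 keratinocyte genes were higher (0.0376 to 0.36, against -0.861 to 0.182). Of 6 skeletal muscle genes 0 passed there, though their list mean was lower at P5 (-0.73 to -0.12, against 0.272 to 1.57). Of 2 measured Schwann cell genes 0 passed, and their mean was higher at P5 (0.0614 to 0.682, against -0.464 to -0.0397). The part of these cells in the Mfap5 differences was not tested.

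Without P1 back 1, P1 back 6 and P5 back 3, the P5 site difference of Mfap5 was -1.60 (limma adjusted p = 0.018) and its age difference in labelled tail stayed called (adjusted p = 0.023). The remaining pair of P5 back arrays still had tendon list means of 0.374 and 0.645, above every labelled P5 tail array. In the same fit Efemp1 differed by 1.26 between the P5 sites (adjusted p = 0.0075). That fit leaves 1 array in labelled P1 back, which is assumed to vary like the other groups: with it Efemp1 differed by 1.13 between the P1 sites (adjusted p = 0.092) and Fbln1 between the ages in labelled back by -0.48 (adjusted p = 0.79).

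**Figure D4:**
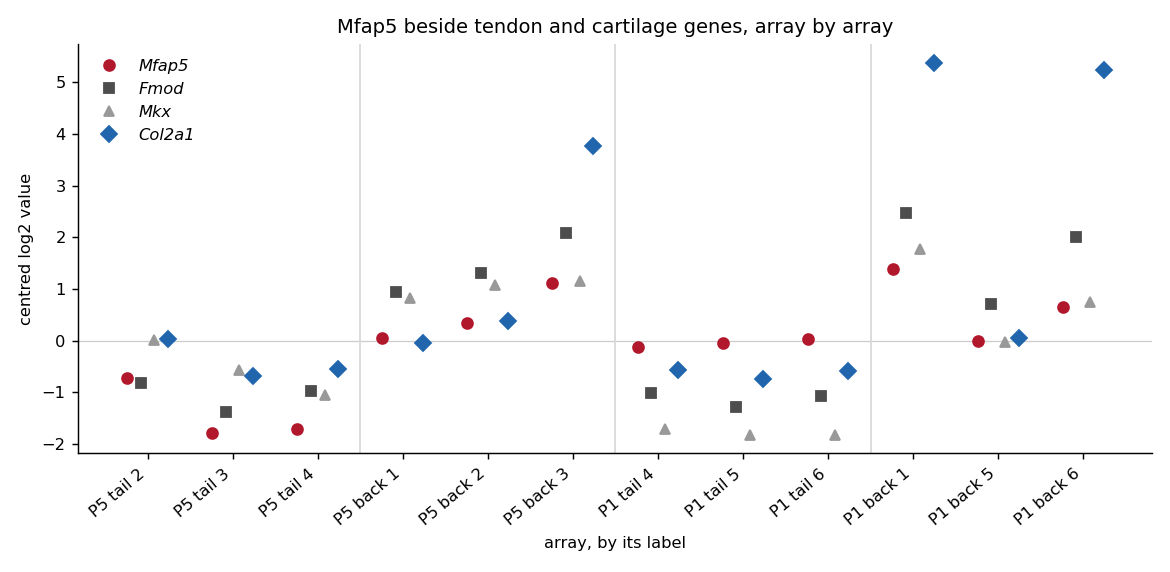
Centred log2 value (vertical axis) of Mfap5, the tendon genes Fmod and Mkx and the cartilage gene Col2a1 on each of the 12 arrays (horizontal axis, by label). Mfap5 reaches 1.39, 1.11 and 0.65 on the arrays where Col2a1 is above 3, and lies between -1.79 and -0.71 in labelled P5 tail.

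Over the 12 arrays, of 36 pairs of elastic fibre genes 26 correlated above 0 and 10 below, with a median Pearson r of 0.224. Eln ran with Mfap4 (r = 0.80) and Fbln5 (0.67), and Fbln5 with Mfap4 (0.67). Mfap2 ran with Fbln1 (0.76), Fbln2 (0.72) and Mfap5 (0.56). The values of Fbln1 and Fbln2 are means of probe sets that disagree (lowest r of -0.409 and -0.0933), so every r with these genes is limited. The probe sets of Fbln5 ran together only in part (r = 0.497), which limits its r too. Efemp1 ran most closely with Fbn2 (0.60), and the lowest r was -0.58 between Mfap4 and Mfap5. Without P5 tail 2 the r of Eln with Mfap4 was 0.72 and with Fbln5 0.57. These values describe 12 arrays that share groups and site.

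**Figure D5:**
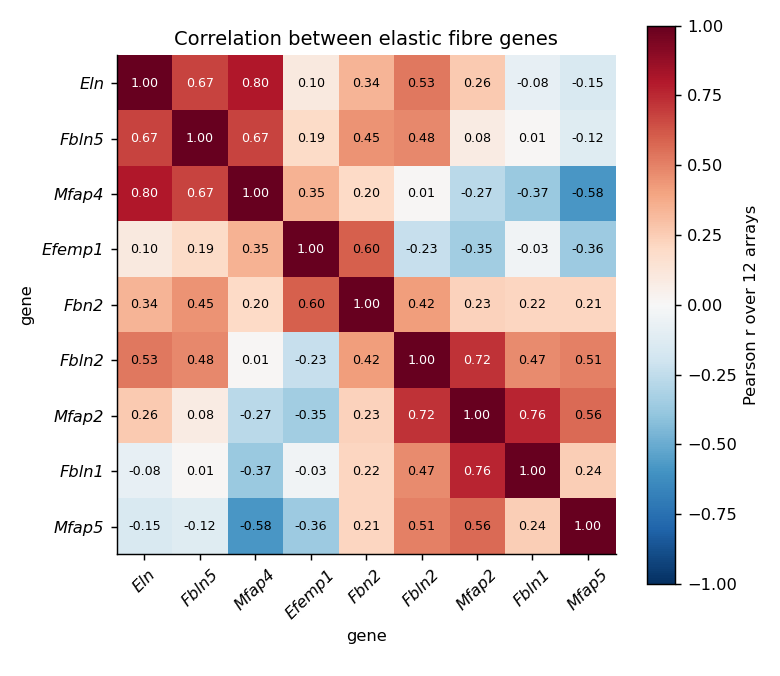
Pearson r over the 12 arrays (colour and printed value) between the 9 measured elastic fibre genes (both axes). Eln, Fbln5 and Mfap4 form pairs at 0.67 to 0.80, and Mfap5 correlates with Mfap4 at -0.58.

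Outside the family, the 5 genes whose values ran most closely with Eln over the 12 arrays were Wipi1 (r = 0.931), Anapc16 (0.931), Tcf19 (0.924), St6gal1 (0.91) and Dph3 (0.909). Without P5 tail 2 these r were 0.824 to 0.88. The corresponding genes for Mfap5, looked up after its values were seen, were Anxa3 (0.956), Thbs3 (0.951), Slco2a1 (0.943), Col11a1 (0.932) and Pcolce (0.931). For Efemp1, likewise, they were Hivep2 (0.942), Cox6c (0.94), Stxbp6 (0.931), Nckap5 (0.917) and Cald1 (0.914).

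The other genes of elastic fibre assembly and turnover were read from 6 lists with 41 genes, of which 37 were measured. Between the P5 sites 5 were higher and 2 lower in labelled tail, where 6.91% of all genes were called, with a median difference of 0.106 beside -0.0191 for all genes. Between the P1 sites 1 was higher and 4 lower, where 3.97% of all genes were called (median -0.165, beside -0.042). Between the ages 3 were higher at P5 and 0 lower in labelled tail, where 5.3% of all genes were called (median 0.0948, beside 0.0388), and 0 passed in labelled back, where 4.25% were (median -0.0575, beside 0.00667). The part of the cell types whose genes moved in these comparisons was not tested for the pathway genes.

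Among the 4 measured cross-linking enzymes, which oxidise lysines of elastin and collagen, Loxl4 was higher in labelled tail at both ages, by 0.70 at P5 (limma adjusted p = 0.00407) and 0.75 at P1 (adjusted p = 0.00338), and these calls held with each array left out. Neither held without P1 back 1, P1 back 6 and P5 back 3, and the P5 call was also lost without P5 tail 2 and P5 tail 3. Over all alternatives the difference stayed at 0.63 to 0.83 at P5 and 0.66 to 0.88 at P1. At P5 Loxl1, the enzyme that mice need to maintain elastic fibres, was also higher (0.89, adjusted p = 0.0411) and Lox lower (-0.50, adjusted p = 0.0231). The Loxl1 call was lost without P5 tail 2, P5 back 1, P5 back 2 or P5 back 3 (adjusted p 0.074 to 0.15) and the Lox call without P5 tail 3, P5 back 1, P5 back 2 or P5 back 3 (0.061 to 0.087). Eln itself did not pass in the same comparisons.

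Of the 10 measured microfibril-bound latent TGF-beta binding and ADAMTS-family genes, Ltbp2, which binds fibrillin, was higher in labelled P5 tail (0.89, limma adjusted p = 0.024), lost without P5 tail 2, P5 back 2 or P5 back 3 (adjusted p 0.078 to 0.11). Of 5 other fibulins and emilins, the large fibulin-family gene Hmcn1 was higher there (0.59, adjusted p = 0.0482), lost without each array but P5 tail 4 (0.095 to 0.18). None of the 3 elastin receptor complex genes passed in any comparison with limma.

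The TGF-beta ligands, which microfibrils hold in latent form, comprise 3 genes. Tgfb2 was lower in labelled P1 tail than in labelled P1 back by a log2 difference of -0.70 (limma adjusted p = 0.00342) and Tgfb3 by -0.82 (adjusted p = 0.00577), both with each array left out too, but not without P1 back 1, P1 back 6 and P5 back 3 (-0.58 and -0.63, adjusted p = 0.4 and 0.48, with 1 array in labelled P1 back). At P5 neither passed, and in labelled tail both were higher at P5 than at P1, Tgfb2 by 0.51 (adjusted p = 0.0218, lost without P5 tail 2, P1 tail 5 or P1 tail 6 at 0.051 to 0.1) and Tgfb3 by 0.80 (adjusted p = 0.0068, lost with only the arrays of labelled tail in the fit at 0.059). The interaction of site and age was called for both, at 0.81 and 1.12, while it was called for 0 of the 9 elastic fibre genes (2 of 9 at an unadjusted p under 0.05), against 2.87% of all genes (14.4% before adjustment).

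Among 12 proteases that degrade elastin and their inhibitors, Ctsk, which encodes the matrix protease cathepsin K, was lower in labelled tail at both ages. The difference was -0.96 at P5 (limma adjusted p = 0.00569, held with each array left out) and -0.69 at P1 (adjusted p = 0.0496, lost without P1 tail 5, P1 tail 6, P1 back 1, P1 back 5 or P1 back 6 at 0.053 to 0.2). Ctsl was higher in labelled P5 tail than in labelled P5 back (0.42, adjusted p = 0.0445), lost without P5 tail 3, P5 back 1, P5 back 2 or P5 back 3 (0.072 to 0.17). The inhibitor Timp1 was lower in labelled P1 tail than in labelled P1 back (-0.96, adjusted p = 0.048), lost without any 1 of the 6 arrays (0.052 to 0.2). Mmp12, the macrophage elastase, was higher in labelled P5 tail than in labelled P1 tail (0.46, adjusted p = 0.0442), lost without P5 tail 2, P1 tail 4 or P1 tail 6 (0.073 to 0.18).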

How the data were processed

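RNA from dermis was hybridised to 12 Affymetrix MG430.2A arrays, 3 per labelled group of site and age. RMA normalisation in GeneSpring was done by the authors. The deposited log2 values are in addition centred per probe set on the median of the 12 arrays, which the sources used here do not describe. The log base is that of RMA. Centring removes levels, so the methods' filter on the 20% of probe sets with the lowest signal could not be run. It leaves differences between arrays unchanged, and their precision is limited by the number of arrays. The array medians lay between -0.0232 and 0.0141.

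Of 45101 probe sets, 64 control probe sets were left out. Of the 45037 tested, the platform annotation pairs 34945 with 1 symbol, 932 with several and 9160 with no symbol. Probe sets with 1 symbol were averaged into 18193 genes. A group-means model of all 12 arrays (lmFit, then eBayes, limma 3.58.1 under R 4.3.3) gave 5 comparisons, without a replicate block. Benjamini-Hochberg adjustment was over all genes, or over all probe sets for single probe sets, with a threshold of 0.05. P-values measure the spread between these arrays, taken as 1 mouse each.

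All 10 elastic fibre genes are named, with every called gene of the 6 pathway lists and the 5 genes nearest to Eln. Genes nearest to Mfap5 and Efemp1, and the markers correlated with them, were named after their values were seen. The members and lists were chosen with earlier results of these data known. The fit was first tested on simulated data with known changes. Alternatives were centring each array on its median, robust variances, array weights, a replicate block, only the arrays compared, each array left out, other choices of probe set, the methods' t-test and 2 sets of arrays left out together, of which leaving out P5 tail 2 and P5 tail 3 was chosen after seeing the data. The methods' t-test is the unpaired t-test that the study gives for its measurements in general. The study names no test for the arrays. Promoter sequences are from RefSeq (GRCm38.p6).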

Additional observations from a re-analysis of the deposited data

Results flagged for a closer look

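The site difference changed with age for a pair of TGF-beta ligand genes that microfibrils hold in latent form, as tested by the interaction in limma. For Tgfb2 the interaction was 0.81 on the log2 scale (SE 0.163, 95% interval 0.458 to 1.16, adjusted p = 0.0184): labelled tail minus labelled back was 0.11 at P5 and -0.70 at P1. For Tgfb3 it was 1.12 (SE 0.205, interval 0.671 to 1.56, adjusted p = 0.0118), from 0.30 at P5 and -0.82 at P1. The Tgfb3 interaction passed with each of the 12 arrays left out in turn, and that of Tgfb2 was lost without P5 back 2, P1 tail 6, P1 back 1 or P1 back 6 (adjusted p 0.05 to 0.061). Without P1 back 1, P1 back 6 and P5 back 3, which leaves 1 array in labelled P1 back, neither passed (Tgfb2 0.68, adjusted p = 0.47, and Tgfb3 0.97, adjusted p = 0.29). The Tgfb2 interaction was also lost with the probe set of largest SD (0.93, adjusted p = 0.06) and without P5 tail 2 and P5 tail 3, which leaves 1 array in labelled P5 tail (0.69, adjusted p = 0.071). The interaction was called for marker genes of other cells too: 6 of 6 adipocyte genes (median of the list -2.30), the keratinocyte genes Krt5 (1.21) and Krt14 (1.76) of 7, and the macrophage gene Mrc1 (-1.33) of 5. The part of these cells in the Tgfb2 and Tgfb3 interactions was not tested.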

How the results depend on the processing

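Over 654 values of elastic fibre genes under the alternatives, 589 kept direction and call, 28 missed the threshold, 11 newly passed it and 26 changed sign. None of the 26 was among the 83 values of called differences. The count of called genes between the P5 sites was 2 with each array left out, 1 without P5 tail 2 and P5 tail 3, which leaves 1 array in labelled P5 tail, assumed to vary like the other groups (Efemp1 then at 0.76, adjusted p = 0.13 by limma), and 0 with the methods' t-test after adjustment. Between the P1 sites it was 0 to 1 with an array left out, 5 with array weights, 3 with the methods' t-test before and 0 after adjustment, and 0 without P1 back 1, P1 back 6 and P5 back 3, which leaves 1 array in labelled P1 back under the same assumption. Between the ages in labelled tail it was 0 to 1 with an array left out, 0 with array weights, 0 without P5 tail 2 and P5 tail 3, and 2 before and 0 after adjustment with the methods' t-test. Between the ages in labelled back it was 0 with any array left out, 3 with array weights, 0 without suffixed probe sets, 0 without P1 back 1, P1 back 6 and P5 back 3, and 0 with the methods' t-test after adjustment. The interaction count was 0 to 1 with an array left out. Array weights gave P5 tail 2 a weight of 0.18, and called 3650 genes between the P1 sites against 722 without them, and 433 against 964 between the ages in labelled tail. Over the alternatives the number of all genes called ran from 24 to 2286 between the P5 sites (1257 in the fit reported), 6 to 3653 between the P1 sites (722), 0 to 1845 between the ages in labelled tail (964), 10 to 3603 in labelled back (773) and 44 to 767 for the interaction (522), the lowest with the methods' t-test after adjustment or, for the interaction, without P1 back 1, P1 back 6 and P5 back 3, and the highest with that t-test before adjustment or, for the interaction, with array weights. The cause of these moves was not tested.

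Replicate numbers of the labels were not taken as pairs, since each comparison holds fewer than 3 pairs and the deviations of the 6 pairs correlated between -0.129 and 0.234. With the replicate block the counts were 2 between the P5 sites, 1 between the P1 sites, 0 between the ages in labelled tail (Mfap5 -2.04, adjusted p = 0.073) and 0 in labelled back (Fbln1 -0.49, adjusted p = 0.31). With it Fbln5 was -0.15 between the ages in labelled tail and -0.13 in labelled back, and Mfap2 -0.15 in labelled tail.

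Of 17 called values of pathway genes, interactions included, none changed sign under the alternatives other than single arrays left out. The calls lost were 15 of 17 without P1 back 1, P1 back 6 and P5 back 3, 9 of 12 without P5 tail 2 and P5 tail 3, 15 of 15 with the methods' t-test after adjustment, 8 of 15 with only the arrays compared, 7 of 17 with array weights and 7 of 17 with the replicate block (among them Tgfb3 between the ages in labelled tail, 0.53, adjusted p = 0.24).

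Other changes of sign were of elastic fibre gene differences that had not passed. Without suffixed probe sets Fbln2 was 0.11 between the P5 sites, 0.22 between the P1 sites, 0.16 between the ages in labelled tail and 0.27 in labelled back. With array weights Fbln2 was 0.018 between the ages in labelled back and Mfap2 -0.0027 in labelled tail. Mfap5 between the ages in labelled back was 0.19 without P1 back 1, P1 back 6 and P5 back 3, and the Efemp1 interaction -0.16 without P5 tail 2 and P5 tail 3. With 1 array left out, the ranges between the P5 sites were -0.081 to 0.40 for Eln, -0.026 to 0.32 for Fbn2 and -0.34 to 0.073 for Mfap2, and between the P1 sites -0.027 to 0.26 for Fbln5. Between the ages they were -0.021 to 0.16 for Fbln1, -0.23 to 0.084 for Fbln2 and -0.17 to 0.23 for Mfap2 in labelled tail, and -0.12 to 0.074 for Fbln2 and -0.52 to 0.18 for Mfap5 in labelled back. The Efemp1 interaction ranged from -0.038 to 0.34. The filter on dim probe sets and the variance trend were not run, because centred values hold no levels, and neither the fit of compared groups alone nor the methods' t-test applies to the interaction.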
